A study of Homo sapiens and Mus musculus with 4 samples.

Results

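The genes described here are 14 of the 60736 genes measured: the human genes CD1A, CD1B, CD1C, CD1D, CD1E, RAG1, RAG2, DNTT and PTCRA, and the mouse genes Cd1d1, Rag1, Rag2, Dntt and Ptcra. They are genes used by immature T cells in the thymus, and they were chosen by name with their measured levels in these libraries known, so every level and ratio of theirs is a description and carries no test. Messenger RNA from 4 established lymphocyte cell lines was sequenced in bulk, with 1 library per line, as a reference for a comparison of single-cell methods. The human lines were both derived from T-cell leukaemias, Jurkat serving in the study as CD4+ T cells and TALL104, which is kept in interleukin-2, as CD8+ T cells. The mouse lines were EL4, from a T-cell lymphoma, and IVA12, a hybridoma serving as B cells. Each line is 1 culture with no stated treatment, genotype or time point, and lines were compared within a species.

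During T-cell development the antigen receptor genes are cut and rejoined, a process called V(D)J recombination. RAG1 and RAG2 form the enzyme that cuts the DNA, and DNTT (terminal deoxynucleotidyl transferase) adds bases at the joins without a template. PTCRA is the invariant chain that pairs with the first rearranged beta chain in the pre-T-cell receptor. The CD1 proteins resemble MHC class I and present lipids to T cells. CD1A, CD1B, CD1C and CD1E are carried by human cortical thymocytes and by dendritic cells, whereas mice have kept genes of the CD1D type alone.

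Levels are given as FPKM (fragments scaled to gene length and to the reads of the library), which allows levels of genes of different length to be set side by side. The table gave 32738 human and 27998 mouse genes, and library totals recovered from the steps between values were 25286728 to 34783047 reads. Brackets hold exact 95% Poisson intervals of the reads behind a value. They cover counting error only, since reads copied by PCR are not independent molecules, and they say nothing about the spread between cultures, which 1 library per line cannot show. A gene was taken as detected at an FPKM of at least 1, and a value listed at 0 is given with the FPKM that 3 reads would make. A level is an average over a culture, so fewer expressing cells and less RNA per cell cannot be told apart. The labelled cell types were checked against marker genes: all 11 genes of the T-cell receptor complex and its proximal signalling were detected in both human lines, 10 of the 11 mouse genes in EL4 and 3 in IVA12. In IVA12 the B-cell genes Cd79b (163 FPKM) and Ms4a1 (46.5 FPKM) were high, while Pax5 (0.156 FPKM) and Cd79a (0.0543 FPKM) were near 0.

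All 9 human genes were detected in Jurkat and 1 of them, CD1A, in TALL104. Among all human genes 33.2% were detected in Jurkat and 33.1% in TALL104. In Jurkat the genes spanned 2 orders of level, with 6 of them at 10 FPKM or more and 3 between 1 and 4 FPKM. CD1E was highest and was followed by DNTT, CD1A, CD1B, CD1C, CD1D, RAG2, RAG1 and PTCRA. Neighbours in that order differed beyond their counting intervals, except CD1B and CD1C, and RAG1 and PTCRA, whose intervals overlapped. In TALL104 CD1A was followed by CD1C, then by CD1E, PTCRA, RAG1 and DNTT, whose intervals overlapped with each other (that of PTCRA also with that of CD1C), and CD1B, CD1D and RAG2 were listed at 0. The plot of both human lines shows these levels with their counting intervals.

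**Figure D1:**
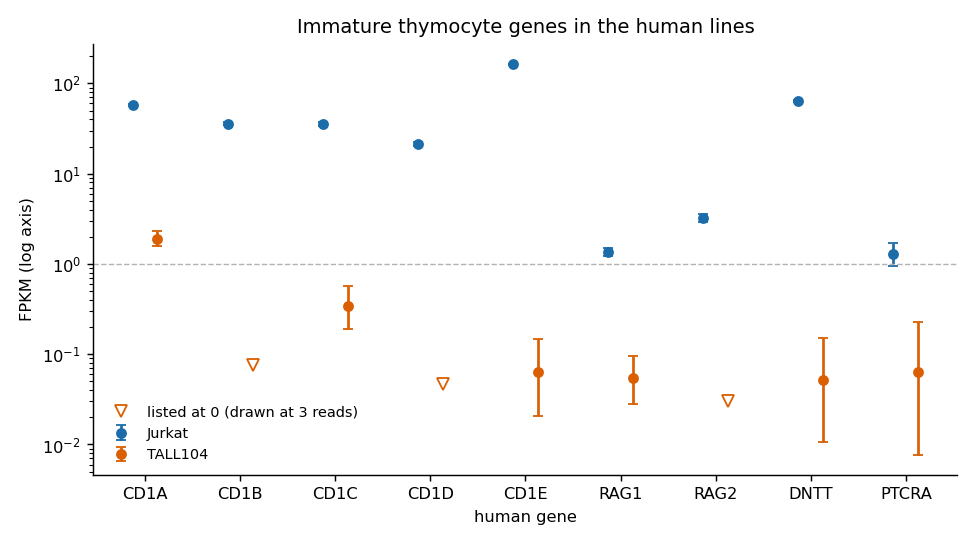
FPKM of the 9 human genes (log axis) in Jurkat and TALL104, 1 library each. Points are levels, bars are exact 95% Poisson intervals for counting error, open triangles are values listed at 0 drawn at the FPKM of 3 reads, and the dashed line marks 1 FPKM. All 9 Jurkat points lie above 1 FPKM, and of the TALL104 points only CD1A does, at 1.90.

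All 9 genes were over 1.5-fold higher in Jurkat on FPKM + 1, where 13.8% of all human genes were higher in Jurkat by this measure and 11.4% in TALL104. The genes were selected on this contrast, so the count is a description. The median log2 ratio of FPKM + 1 was 4.48 over the 9 genes, 0.00 over all human genes and 0.10 over the 12214 genes detected in either line. Adding 1 to each value understates the ratio of low genes. On FPKM itself the median ratio was 107, with the 3 genes listed at 0 in TALL104 entered at the ratio that 3 reads would give. That median is the value entered for RAG2, so it rests on the choice of 3 reads and is not a measured ratio. Of the 6 genes at 20 FPKM or more in Jurkat, 5 had under 1% of that level in TALL104, CD1A being the exception. Among all 2508 human genes at that level 31, or 1.24%, did so. These limits were set after the values were seen. By the limits for signature genes, more than 50 FPKM in 1 of the lines and a natural log ratio of FPKM + 1 beyond 3, 20 human genes were higher in Jurkat, and CD1A, CD1E and DNTT were 3 of them. CD1A passed narrowly: its log2 ratio was 4.34, and 4.25 under each of the other scalings, which is below the ratio limit.

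The 5 CD1 genes lie within 180 kb on chromosome 1 (chr1:158147820-158327343, hg19) in the order CD1D, CD1A, CD1C, CD1B and CD1E, with CD1B on the minus strand. Each has 6 coding exons, and the annotated proteins have 327 (CD1A), 333 (CD1B), 333 (CD1C), 335 (CD1D) and 388 (CD1E) residues. The windows around the transcript starts of CD1E, the highest gene of the cluster in Jurkat, and of CD1C, one of the lower ones, are shown because neighbours in one cluster differed in level. They run from 250 bases before to 50 bases after a start in RefSeq (GRCh38.p14) and were placed on hg19 by exact match, at chr1:158323434-158323733 for CD1E and chr1:158259463-158259762 for CD1C, both on the plus strand. In the annotation used for positions, CD1E begins earlier than this RefSeq start, at 158323486. The 2 windows do not set a pattern of E-boxes against level: those of CD1D, lower than CD1C in Jurkat, held 1 and 0. Capitals mark E-boxes, the letters CANNTG to which proteins of the E family bind and which read alike on both strands.
CD1E: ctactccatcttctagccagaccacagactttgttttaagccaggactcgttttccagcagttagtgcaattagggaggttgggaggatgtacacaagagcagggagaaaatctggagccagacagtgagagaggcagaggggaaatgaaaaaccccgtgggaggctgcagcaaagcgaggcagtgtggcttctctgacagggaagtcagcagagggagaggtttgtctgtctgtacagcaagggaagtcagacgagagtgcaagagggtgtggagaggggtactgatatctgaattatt
CD1C: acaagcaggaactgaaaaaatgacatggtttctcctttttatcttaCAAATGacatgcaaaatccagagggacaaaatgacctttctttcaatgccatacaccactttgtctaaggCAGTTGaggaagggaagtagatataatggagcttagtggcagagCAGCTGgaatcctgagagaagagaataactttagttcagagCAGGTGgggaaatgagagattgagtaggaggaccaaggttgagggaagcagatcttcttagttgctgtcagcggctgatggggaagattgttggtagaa

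CD1E, which in dendritic cells helps to load lipids onto the other CD1 proteins and is not itself carried to the cell surface, had 163 FPKM [161 to 166] in Jurkat (15729 reads) and 0.0637 FPKM [0.0207 to 0.149] in TALL104 (5 reads). It ranked 156th among the 32738 human genes in Jurkat. The TALL104 level was 0.0390% [0.0127 to 0.0910] of the Jurkat level, which is a log2 ratio of FPKM + 1 of 7.27. Within Jurkat the CD1E level was 2.83 times that of CD1A [2.74 to 2.93] and 7.66 times that of CD1D [7.28 to 8.06].

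CD1A, the marker most used for cortical thymocytes and Langerhans cells, had 57.7 FPKM [56.0 to 59.5] in Jurkat (4208 reads, rank 657) and 1.90 FPKM [1.57 to 2.29] in TALL104 (113 reads, rank 9707). Its TALL104 level was the highest of the 9 genes there, and its ratio of 30.3 [25.2 to 36.9] the lowest among the CD1 genes. The log2 ratio of FPKM + 1 was 4.34.

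CD1B, which presents mycobacterial lipids with long chains, had 35.8 FPKM [34.2 to 37.5] in Jurkat (1738 reads) and was listed at 0 in TALL104, where 3 reads would make 0.0759 FPKM. The Jurkat level was thus at least 472-fold higher, against 3 reads in the TALL104 library. CD1A exceeded CD1B in Jurkat 1.61-fold [1.52 to 1.71].

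CD1C, a marker of conventional dendritic cells as well as of thymocytes, had 35.4 FPKM [33.7 to 37.1] in Jurkat (1766 reads) and 0.344 FPKM [0.188 to 0.577] in TALL104 (14 reads). The ratio was 103 [61.1 to 188], between those of CD1A and CD1E. CD1B and CD1C could not be told apart in Jurkat, but in TALL104 CD1C lay above the level that 3 reads would give CD1B.

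CD1D, which presents glycolipids to natural killer T cells and is the CD1 protein shared with mice, had 21.3 FPKM [20.3 to 22.4] in Jurkat (1673 reads) and was listed at 0 in TALL104, where 3 reads would make 0.0470 FPKM. It was the lowest CD1 gene in Jurkat, and its level there was 454-fold that of 3 reads in the TALL104 library. The interval of 0 reads in TALL104 runs up to 0.0578 FPKM.

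Summed over the 5 genes, chosen as a sum after the values were seen, CD1 FPKM came to 314 in Jurkat and 2.31 in TALL104. CD1E made up 52.1% of the sum in Jurkat and 2.76% in TALL104, while CD1A made up 18.4% and 82.3%. Beta-2-microglobulin (B2M), the light chain that CD1 shares with MHC class I, went the other way, with 233 FPKM [231 to 236] in Jurkat and 1351 FPKM [1344 to 1359] in TALL104. The B2M level was 0.744 times the summed CD1 level in Jurkat and 585 times in TALL104.

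**Figure D2:**
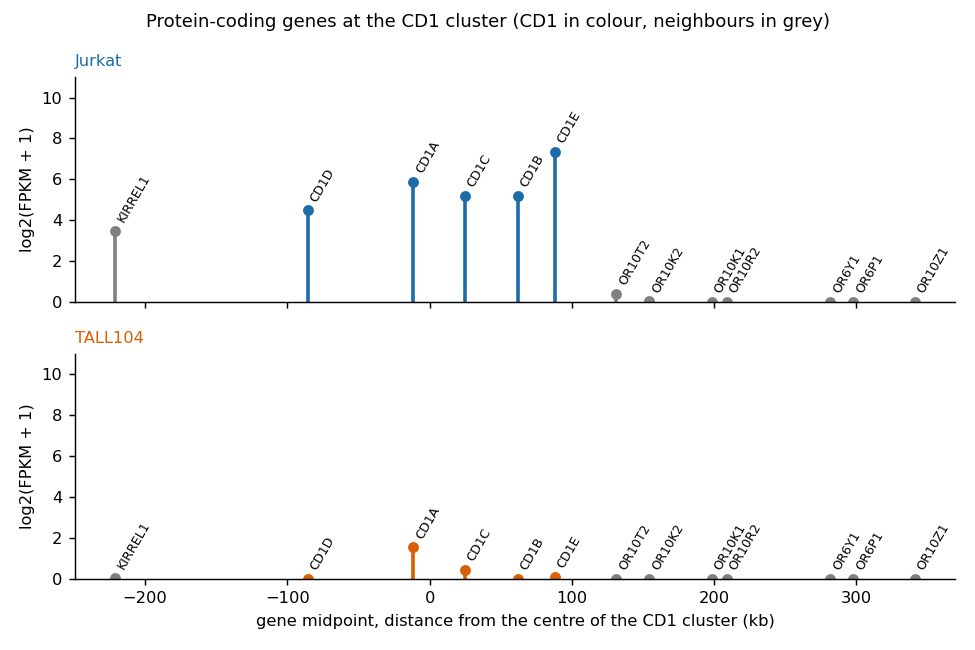
Level as log2(FPKM + 1) of each protein-coding gene within 250 kb of the CD1 cluster in Jurkat (top) and TALL104 (bottom), 1 library each, against distance of the gene midpoint from the centre of the cluster in kb. CD1 genes are in colour and neighbours in grey; in Jurkat the 5 CD1 genes and KIRREL1 stand above the olfactory receptor genes, which stay at or under 0.335 FPKM.

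In Jurkat the genes beside the cluster were lower than the CD1 genes, as the plot of the cluster shows. In TALL104 these neighbours were near 0, as were CD1B, CD1D and CD1E. Of 8 other protein-coding genes within 250 kb, 1 was detected in Jurkat and none in TALL104 at 1 FPKM. That gene was KIRREL1, an adhesion protein known from the slit diaphragm of the kidney, with 10.2 FPKM in Jurkat and 0.0403 FPKM in TALL104 (log2 ratio of FPKM + 1 of 3.42). The other 7 encode olfactory receptors, and their highest value was 0.335 FPKM, for OR10T2 in Jurkat.

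RAG1 and RAG2 are neighbours on chromosome 11 and face each other (RAG1 at chr11:36531922-36614706 on the plus strand, RAG2 at chr11:36597124-36619829 on the minus strand, hg19). Their annotated spans overlap by 17583 bases and share 588 exon bases. The libraries were stranded, but the strand setting of the counting is not given in the sources used here, so reads on the shared bases cannot be told apart. Each gene has its coding sequence in 1 exon, of 1043 residues for RAG1 and 527 for RAG2.

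RAG1, the subunit that holds the DNA-cutting site, had 1.36 FPKM [1.23 to 1.51] in Jurkat (370 reads, rank 10298) and 0.0542 FPKM [0.0280 to 0.0946] in TALL104 (12 reads). The ratio of FPKM was 25.1 [14.2 to 49.1], although the log2 ratio of FPKM + 1 was 1.16. RAG2, the partner that binds modified histone H3, had 3.24 FPKM [2.93 to 3.58] in Jurkat (395 reads, rank 8548) and was listed at 0 in TALL104, where 3 reads would make 0.0302 FPKM. The RAG2 level in Jurkat was 107-fold that of 3 reads in the TALL104 library, where the interval of 0 reads runs up to 0.0372 FPKM. Within Jurkat RAG2 exceeded RAG1 2.38-fold [2.06 to 2.75], at nearly equal read numbers, since the length used for RAG1 in the table is greater. Of 4 other protein-coding genes within 250 kb, 3 were detected in a human line: COMMD9 (10.9 FPKM in Jurkat, 8.11 in TALL104) and TRAF6 (5.34 and 6.83 FPKM), which were alike in both lines within 1.5-fold on FPKM + 1, and PRR5L (0.126 and 15.6 FPKM), which was higher in TALL104.

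DNTT (chr10:98064166-98098321, plus strand, hg19; 11 coding exons, 509 residues) was the second highest of the 9 genes in Jurkat. The window around its transcript start, at chr10:98063941-98064240 on the plus strand, is shown with that of PTCRA, at chr6:42883541-42883840 on the plus strand, because these genes are switched on at neighbouring stages in the thymus and stood far apart in the order of levels in Jurkat. Capitals mark E-boxes as above.
DNTT: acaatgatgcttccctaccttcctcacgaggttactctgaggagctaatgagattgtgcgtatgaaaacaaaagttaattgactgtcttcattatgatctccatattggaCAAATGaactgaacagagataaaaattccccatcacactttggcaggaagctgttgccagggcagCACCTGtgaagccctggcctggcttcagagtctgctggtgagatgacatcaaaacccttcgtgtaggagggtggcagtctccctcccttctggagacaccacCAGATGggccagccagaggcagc
PTCRA: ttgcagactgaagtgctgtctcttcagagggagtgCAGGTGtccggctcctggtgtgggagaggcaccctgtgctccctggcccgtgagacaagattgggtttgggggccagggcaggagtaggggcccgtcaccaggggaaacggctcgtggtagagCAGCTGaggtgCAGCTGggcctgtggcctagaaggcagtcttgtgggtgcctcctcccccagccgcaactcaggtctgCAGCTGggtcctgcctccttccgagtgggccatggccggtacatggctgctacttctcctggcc

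DNTT had 63.5 FPKM [61.7 to 65.4] in Jurkat (4509 reads, rank 573) and 0.0519 FPKM [0.0107 to 0.152] in TALL104 (3 reads). The TALL104 level was 0.0816% [0.0168 to 0.239] of that in Jurkat, and the log2 ratio of FPKM + 1 was 5.94. In Jurkat DNTT stood 19.6-fold above RAG2 [17.7 to 21.8] and 46.7-fold above RAG1 [42.0 to 52.0], so the enzyme that fills joins and the enzyme that makes cuts were far apart in messenger level. Of 5 other protein-coding genes within 250 kb of DNTT, 2 were detected, each in both human lines. These were CCNJ (9.14 FPKM in Jurkat, 2.96 in TALL104) and TM9SF3 (43.2 and 33.9 FPKM), with log2 ratios of FPKM + 1 of 1.36 and 0.34.

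PTCRA (chr6:42883727-42893576, plus strand, hg19; 4 coding exons, 281 residues) was the lowest of the 9 genes in Jurkat, with 1.28 FPKM [0.950 to 1.69] (50 reads, rank 10408), and had 0.0628 FPKM [0.00761 to 0.227] in TALL104 (2 reads). The interval in Jurkat includes 1 FPKM, so its detection there rests on a narrow margin. The ratio of FPKM was 20.4 with a wide interval [5.35 to 173]. Its surroundings were active in both lines: of 18 other protein-coding genes within 250 kb, 16 were detected in Jurkat and 16 in TALL104, with up to 80.8 FPKM. PTK7, a receptor-like gene with 9.88 FPKM in Jurkat and 0.121 FPKM in TALL104, had a log2 ratio of FPKM + 1 of 3.28, above that of PTCRA (1.10).

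RefSeq gave 10 start windows for 8 of the 9 human genes, and none was matched for CD1B. E-boxes (CANNTG) were in 8 of the 10 windows and in 68.7% of the 35116 human start windows of the same length. CD1C and PTCRA held 4 each, DNTT 3, and the CD1A windows 3 and 1. The CD1D windows held 1 and 0, RAG1 and RAG2 1 each, and CD1E none. Any link between these counts and the levels was not tested. The TATA letters TATAAA were in none of the 10 windows and in 11.5% of all windows. Searched on both strands, the letters AGATAA, known from GATA factors, were in 4 of the 10 windows and in 10.3% of all windows. The letters CAGGAA, known from ETS factors, were in 5 and in 28.4%. The RUNX letters TGTGGT were in 2 and in 13.1%, and the TCF and LEF letters TCAAAG in 1 and in 12.9%. These letter matches describe the windows and mark no binding site. The GC content of the windows ran from 36.7% for RAG2 to 72.3% for RAG1, with a median of 58.7% over all windows. The RAG1 window (chr11:36531653-36531952, hg19) overlaps the annotated span of TRAF6, which ends at 36531822. Its GC content and letters are therefore not particular to RAG1.

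In mouse, 2 of the 5 genes were detected in EL4 and 1 in IVA12, where 34.3% and 35.0% of all mouse genes were. Dntt was over 1.5-fold higher in EL4 on FPKM + 1, and no gene of the 5 was so in IVA12, against 9.75% and 11.2% of all mouse genes. The median log2 ratio of FPKM + 1 was 0.00 both over the 5 genes and over all mouse genes.

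Dntt (chr19:41029275-41059525, plus strand, mm10) had 81.0 FPKM [78.8 to 83.1] in EL4 (5539 reads, rank 622 of 27998) and 0.0929 FPKM [0.0302 to 0.217] in IVA12 (5 reads). The IVA12 level was 0.115% [0.0372 to 0.268] of the EL4 level, and the log2 ratio of FPKM + 1 was 6.23. Of the 2897 mouse genes at 20 FPKM or more in EL4, 107, or 3.69%, had under 1% of that level in IVA12, and Dntt was one. It was also 1 of the 53 mouse genes higher in EL4 by the limits used for signature genes.

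Rag1 (chr2:101638282-101649501, minus strand, mm10) and Rag2 (chr2:101624718-101632529, plus strand) were listed at 0 in EL4 and in IVA12. In EL4, 3 reads would make 0.0141 FPKM for Rag1 and 0.0273 FPKM for Rag2, and in IVA12 0.0180 and 0.0346 FPKM. EL4 therefore had Dntt without detectable Rag1 or Rag2 at this depth, whereas Jurkat had reads on all 3 human genes. The gene B230118H07Rik, whose span covers Rag1 and Rag2, was at 0.00725 FPKM in EL4 and at 4.61 FPKM in IVA12. Nearby Traf6 (10.6 FPKM in both lines) and Commd9 (3.51 FPKM in EL4, 8.96 in IVA12) were detected in both.

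Ptcra (chr17:46755663-46763712, minus strand, mm10) was listed at 0 in EL4, where 3 reads would make 0.0727 FPKM, and had 0.216 FPKM [0.0867 to 0.445] in IVA12 (7 reads). The IVA12 level was 2.97-fold that of 3 reads in the EL4 library. Its interval overlapped that of 0 reads in EL4, which runs up to 0.0894 FPKM, so the lines could not be told apart. The level lay under the detection limit in the B-lineage line too, and the gene overlaps Gm26904. Within 250 kb, 14 of 19 other protein-coding genes were detected in each mouse line.

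Cd1d1 (chr3:86995834-86999441, minus strand, mm10), the mouse counterpart of CD1D, had 2.07 FPKM [1.77 to 2.40] in EL4 (171 reads) and 1.18 FPKM [0.935 to 1.48] in IVA12 (77 reads). The ratio of FPKM was 1.75 [1.33 to 2.32], and the log2 ratio of FPKM + 1 was 0.49, under the 1.5-fold limit. Its near-identical copy Cd1d2 was listed at 0 in all 4 libraries, and how reads shared by both copies were counted is not given in the sources used here, so the split between them is uncertain. Beside Cd1d1, Lrba was at 5.92 FPKM in EL4 and 3.32 in IVA12, and Dclk2 3.65 and 0.536 FPKM.

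**Figure D3:**
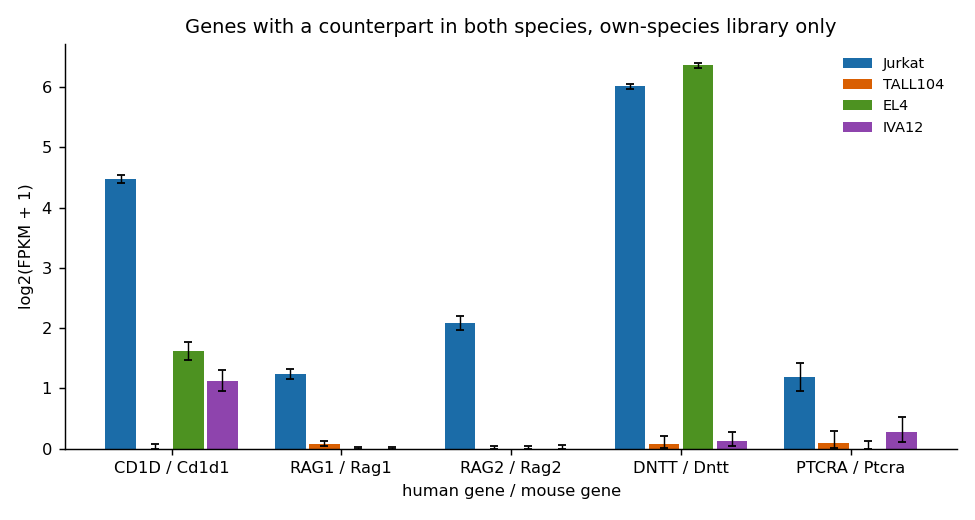
Level as log2(FPKM + 1) of the 5 genes with a counterpart in both species, each in the 2 lines of its own species, 1 library per bar. Error bars are exact 95% Poisson intervals for counting error; DNTT and Dntt reach 63.5 FPKM in Jurkat and 81.0 FPKM in EL4, and Rag1 and Rag2 are listed at 0 in EL4 and IVA12.

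The plot of the 5 genes found in both species shows DNTT or Dntt high in Jurkat and EL4 and near 0 in TALL104 and IVA12. CD1D was above 20 FPKM in Jurkat while Cd1d1 stayed under 3 FPKM in both mouse lines. The levels of a human and a mouse gene come from different gene lengths and annotations, so they are set side by side without a comparison. Flanking Dntt within 250 kb, 5 of 8 other protein-coding genes were detected. Tm9sf3 was alike in both mouse lines (57.3 FPKM in EL4, 56.9 in IVA12) and Ccnj low in both (1.74 and 2.43 FPKM). Blnk, Pik3ap1 and Zfp518a went opposite to Dntt, with 0.0312, 0 and 0 FPKM in EL4 and 39.6, 11.5 and 8.63 FPKM in IVA12. Blnk and Pik3ap1 are adaptors of B-cell receptor signalling.

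Because reads were aligned to both genomes at once, the level of each human gene in the mouse libraries gives a background in cells without that gene. EL4 held 1 read each on CD1A, CD1D, CD1E, RAG1 and DNTT. IVA12 held 9 reads on CD1E (0.129 FPKM, 0.0787% of the Jurkat level [0.0360 to 0.149]), 4 on DNTT (0.0775 FPKM, 0.122% [0.0332 to 0.313]), 3 on CD1A (0.0981%), and 2 each on CD1D (0.164%) and RAG1 (0.744% [0.0897 to 2.70]). CD1B, CD1C, RAG2 and PTCRA were listed at 0 in both mouse libraries, and of the mouse genes, Dntt had 1 read in Jurkat.

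The plot of percent of the Jurkat level sets the TALL104 values beside this background. CD1E (0.0390%) and DNTT (0.0816%) in TALL104 were lower than in IVA12 and higher than in EL4 (0.00688% [0.000174 to 0.0383] and 0.0240% [0.000607 to 0.134]), and their intervals in TALL104 overlapped those in both mouse libraries. A level in TALL104 above this background was thus not detectable for CD1E or DNTT at this depth. CD1A in TALL104 (3.30% [2.71 to 3.97]) lay above its level in IVA12 and EL4 beyond counting error, and CD1C in TALL104 (0.973% [0.531 to 1.64]) lay above the 3 reads that would make 0.0827 FPKM in IVA12. For RAG1 (3.98% [2.04 to 7.04]) the interval in TALL104 overlapped that in IVA12 but not that in EL4 (0.292% [0.00738 to 1.64]), and PTCRA in TALL104 rested on 2 reads. Over the 31 human genes at 20 FPKM or more in Jurkat with under 1% of it in TALL104, the median percent of the Jurkat level was 0.215 in TALL104, 0.0694 in IVA12 and 0 in EL4. These 31 were picked by their TALL104 level and include 5 of the 9 genes, so the TALL104 median is bounded by that choice. Genes of the other species took 0.0379% of the FPKM in EL4, 0.0457% in TALL104, 0.0474% in Jurkat and 0.175% in IVA12.

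**Figure D4:**
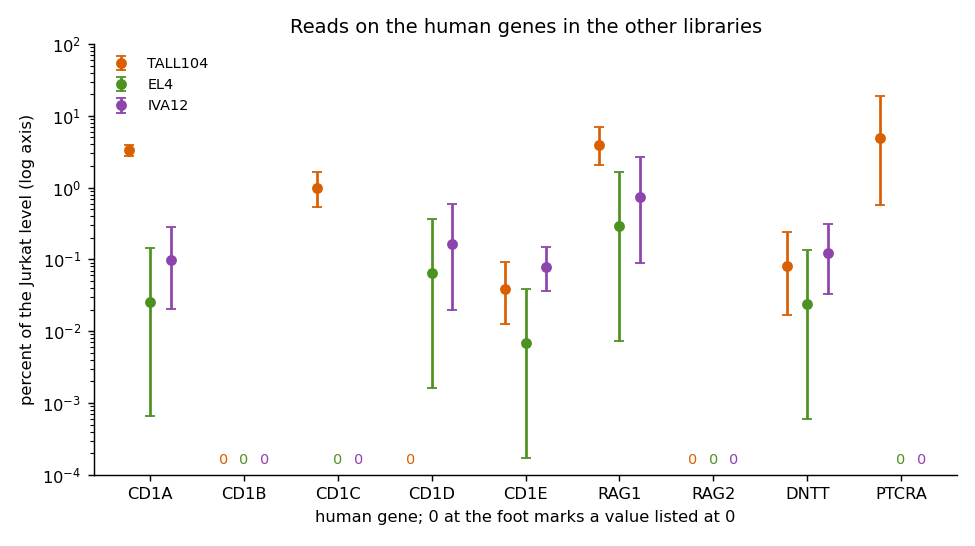
Level of each of the 9 human genes in TALL104, EL4 and IVA12 as a percent of its level in Jurkat (log axis), 1 library per point. Bars are exact 95% intervals for counting error, and a 0 at the foot marks a value listed at 0; CD1A in TALL104 is at 3.30% while CD1E and DNTT in TALL104 lie between EL4 and IVA12, with overlapping intervals.

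The partners of these genes in the same pathways were described by lists, with counts past 1.5-fold on FPKM + 1 and the median log2 ratio. Of 14 genes for cutting partners and the joining of DNA ends, 6 were higher in Jurkat, 4 in TALL104 and 4 within 1.5-fold (median log2 ratio 0.47), and all but 1 were detected in each line. HMGB2 (209 FPKM in Jurkat, 54.8 in TALL104) and HMGB1 (184 and 55.3 FPKM), which bend DNA for the RAG enzyme, were higher in Jurkat. ATM, the kinase that responds to broken ends, was higher in TALL104 (7.89 and 48.8 FPKM). The Ku subunits XRCC6 (278 and 90.3 FPKM) and XRCC5 (201 and 70.4 FPKM), named after their values were seen, were also higher in Jurkat. All but 1 of the 14 genes were thus detected in TALL104, where RAG1, RAG2 and DNTT were near 0.

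Of 11 genes for CD1 assembly and lipid loading, 2 were higher in Jurkat, 3 in TALL104 and 6 within 1.5-fold (median 0.00). Beside B2M, NPC2, a lysosomal lipid carrier, was higher in TALL104 (7.89 FPKM in Jurkat, 23.1 in TALL104), and the chaperone CALR was higher in Jurkat (393 and 179 FPKM). Among 11 partners of the pre-T-cell receptor and its proximal signalling, 1 was higher in Jurkat, 4 in TALL104 and 6 within 1.5-fold (median -0.47). The adaptor LCP2 (16.7 and 71.2 FPKM) and the kinase FYN (13.3 and 23.8 FPKM) were higher in TALL104, opposite to PTCRA.

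Of 16 transcription regulators of thymocytes, 8 were higher in Jurkat, 1 in TALL104 and 7 within 1.5-fold (median 0.51). MYB, needed in early thymocytes, had 88.8 FPKM in Jurkat and 0.508 in TALL104. ID3, an inhibitor of E proteins, had 36.9 and 2.34 FPKM, and LEF1, a factor of the Wnt pathway, 141 and 18.4 FPKM. The E proteins TCF12 (46.3 and 11.1 FPKM) and TCF3 (37.5 and 8.27 FPKM), named after their values were seen, were higher in Jurkat as well.

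Other markers of cortical thymocytes did not share one direction: of 12 genes 5 were higher in Jurkat, 2 in TALL104 and 5 within 1.5-fold (median 0.39). ARPP21, a marker of the double-positive stage, had 8.53 FPKM in Jurkat and 0.00699 in TALL104, and CD2 had 86.0 and 15.6 FPKM. CD8A had 0.601 FPKM in Jurkat and 28.3 FPKM in TALL104. CD4 stood at 0.985 FPKM in Jurkat and 0.0308 in TALL104, and CD8B at 1.23 and 0.114 FPKM (both named after their values were seen). Jurkat, serving as CD4+ T cells, thus held the CD1 genes and DNTT with little of either coreceptor. TALL104, serving as CD8+ T cells, had CD8A with little CD8B. The name given to the 9 genes describes the genes and not the stage of the line. Of 7 markers of mature T cells that leave the thymus or carry memory, 4 were higher in Jurkat and 3 in TALL104 (median 0.77). The egress receptor gene S1PR1 was higher in Jurkat (15.6 FPKM, listed at 0 in TALL104), and CD44 was higher in TALL104 (0.0257 and 76.4 FPKM).

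**Figure D5:**
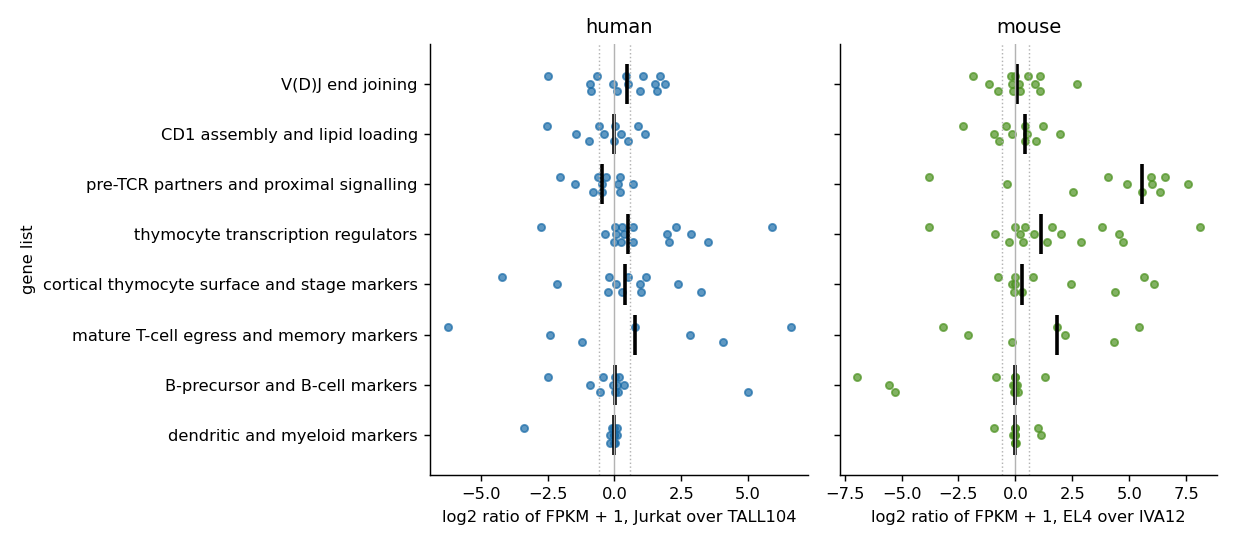
Log2 ratio of FPKM + 1 of each gene of the 8 lists, Jurkat over TALL104 (left) and EL4 over IVA12 (right), 1 library per line. Each point is a gene, black bars are list medians, dotted lines mark 1.5-fold; the mouse receptor signalling list has the highest median, at 5.57, and its human counterpart has -0.47.

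CD1 genes also mark dendritic cells, and RAG and DNTT also mark B-cell precursors, so markers of those cells were read beside them. None of 11 dendritic and myeloid markers was detected in Jurkat, where their summed level was 0.251 FPKM, and 1, ITGAX, was detected in TALL104 (9.33 FPKM, listed at 0 in Jurkat; sum 9.74 FPKM). CLEC10A, CD207, CD209 and CSF1R were listed at 0 in both human lines, FCER1A in Jurkat with 0.121 FPKM in TALL104, and LYZ had 0.0326 and 0.160 FPKM. Among 12 B-lineage markers 2 were detected in Jurkat and 3 in TALL104, with sums of 51.2 and 31.6 FPKM. IGLL1, a surrogate light chain gene of B precursors, was the highest of them in Jurkat (33.5 FPKM, 0.0780 in TALL104), and CD79B (0.0415 and 4.80 FPKM) and EBF1 (0.457 and 1.73 FPKM) were higher in TALL104. CD79A, the partner of CD79B in the B-cell receptor, was the other one detected in Jurkat (16.5 FPKM) and the highest in TALL104 (24.6 FPKM), while PAX5, a factor that defines the B lineage, was near 0 in both lines (0.0124 FPKM in Jurkat, 0 FPKM in TALL104). CD79A and PAX5 are named after their values were seen.

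In the mouse pair the lists differed among themselves, as the plot of the 8 lists shows, with the highest median for the receptor signalling genes. Of these 11 genes 9 were higher in EL4 (median 5.57), among them Cd3d (197 FPKM in EL4, 0.0299 in IVA12), Lat (106 and 0.143 FPKM) and Cd3g (176 and 1.15 FPKM). EL4 thus had these partners of the pre-T-cell receptor with Ptcra listed at 0. Of 16 regulators 9 were higher in EL4 and 2 in IVA12 (median 1.11), with Tcf7 at 597 and 1.14 FPKM, Gata3 at 25.7 and 0.0199 FPKM, and Tox at 23.1 and 0.0156 FPKM. Of 14 end joining genes 4 were higher in EL4 and 3 in IVA12 (median 0.08), and the ligase Lig4 (32.0 and 4.01 FPKM) and Polm (0.731 and 5.29 FPKM), a polymerase related to Dntt, moved in opposite directions. For Nhej1, a ligase cofactor, EL4 gave 0.946 and IVA12 gave 3.29 FPKM.

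Of 11 mouse genes for CD1 assembly 3 were higher in each line (median 0.41). B2m was higher in EL4 (1972 and 499 FPKM), Ap3b1 likewise (44.9 and 18.8 FPKM), and Mttp, which loads lipids onto CD1, was higher in IVA12 (0.596 and 6.83 FPKM). Cortical markers were higher in EL4 for 5 of 11 genes and in IVA12 for 1 (median 0.27), with Cd5 at 75.3 and 0.134 FPKM, Ccr9 at 49.6 FPKM in EL4 and listed at 0 in IVA12, and Themis at 20.1 and 0.00438 FPKM. Of the 7 mature markers 4 were higher in EL4 and 2 in IVA12 (median 1.83), with Il7r at 42.0 and 0.0123 FPKM, and S1pr1 listed at 0 in EL4 with 8.18 FPKM in IVA12. B-lineage markers summed to 2.46 FPKM in EL4 and 251 FPKM in IVA12 (1 of 13 higher in EL4, 4 in IVA12, median -0.03). Dendritic and myeloid markers summed to 7.28 and 3.40 FPKM (2 of 11 higher in EL4, 1 in IVA12, median 0.00), with Flt3 at 6.10 and 2.25 FPKM, Lyz2 at 1.15 and 0.0937 FPKM, and Cd86 listed at 0 in EL4 with 0.951 FPKM in IVA12.

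For each gene at 10 FPKM or more, the protein-coding genes with the most similar pair of levels were found by Euclidean distance in log2(FPKM + 1) over the 2 lines of the species. With 2 lines, this likeness ranks genes by 2 numbers and is a description. Nearest to CD1A were GRK3 (distance 0.256; 52.6 FPKM in Jurkat, 2.38 in TALL104) and PBK (0.271; 48.8 and 1.65 FPKM). CD1B had PRAME (0.113; 34.7 and 0.0747 FPKM) and IGLL1 (0.144), and CD1C had CLIC4 (0.267; 29.4 and 0.400 FPKM) and TCEAL9 (0.278; 29.7 and 0.225 FPKM). CD1D had GXYLT2 (0.018; 21.6 FPKM, listed at 0 in TALL104) and JAM3 (0.074; 20.2 and 0.00647 FPKM).

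The nearest to CD1E was MYO7B (0.170; 145 and 0.0521 FPKM), a distance between those of CD1B and CD1D and those of CD1A and CD1C, and the next gene lay at 0.483. The nearest to DNTT were BEX1 (0.055; 61.9 and 0.0817 FPKM) and TSPAN7 (0.209; 64.1 and 0.216 FPKM). In mouse, Dntt had Itm2a (0.042; 79.2 FPKM in EL4, 0.113 in IVA12) and Cdk6 (0.075; 79.5 and 0.147 FPKM) beside it. None of the nearest genes named for CD1A, CD1B, CD1C, CD1D, CD1E or DNTT was another of the 9 genes.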

How the data were processed

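Libraries were made by the authors from total RNA (RNeasy) with a stranded messenger RNA kit, and reads were aligned to a combined hg19 and mm10 reference. The submitters' processing notes name STAR 2.5.1b, featureCounts 1.6.3 and Cell Ranger 1.2.0, the last for the reference. The strand setting of the counting is not given in the sources used here. The authors deposited FPKM for all genes in 1 table with 0 further columns per library.

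The genes and lists were chosen with earlier results of these data known. Library totals and reads per gene were solved from the FPKM steps, trying lengths of up to 300000 bases with a tolerance of 1e-12 relative to the value. The annotated exon length fitted for 4 of the 14 genes, another length for 8, and for 2, at 0 in each library, the annotated length was taken. Reads of the 8 may share a factor that was missed, which would raise the reads and narrow the intervals. Positions came from GENCODE v44 mapped to GRCh37 and M21, and start windows from RefSeq. Genes without annotation (1556 human, 353 mouse) kept their identifiers.

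Ratios used a pseudocount of 1 FPKM, with exact Poisson or binomial intervals at 95%. With 1 library per line no test was made. The text names the 14 genes with Cd1d2, the 3 genes of each list and species with the largest absolute log2 ratio, neighbours within 250 kb at 1 FPKM or more in either line of the pair (around PTCRA and Ptcra mostly by count), and the 2 nearest genes by level. A few genes that this rule names are not reported here. Alternatives were pseudocounts of 0.1 and 0.01, detection above 0, at 0.1 and at 5 FPKM, a 2-fold limit, other scalings, a minimum of 1 FPKM, 3 reads of background and a 100 kb window. Calculations used Python 3.11.15, NumPy 2.4.6, pandas 2.3.3, SciPy 1.17.1 and matplotlib 3.10.9, and were tested on simulated data.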

Additional observations from a re-analysis of the deposited data

Results flagged for a closer look

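The human gene CD1E had 9 reads in the mouse line IVA12, and human DNTT had 4 reads there, both above the chosen limit of 3 reads. They stood out because IVA12 is a mouse line, whose values on human genes lie outside the pairs of lines compared within a species and served as a background alone. These reads came to 0.0787% of the CD1E level and 0.122% of the DNTT level in Jurkat. The other 7 human genes had 3 reads or fewer in IVA12. Such reads were not limited to these genes: IVA12 held 72 on human B2M and 62 on CANX. Over the 31 human genes high in Jurkat with under 1% in TALL104, the median in IVA12 was 0.0694% of the Jurkat level. The origin of the reads on CD1E and DNTT was not tested.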

How the results depend on the processing

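The count of 9 human genes higher in Jurkat was the same under each alternative tried. Genes detected in TALL104 numbered 1 at 1 FPKM, 6 at any value above 0, 2 at 0.1 FPKM and 0 at 5 FPKM. In IVA12 they numbered 1, 3, 2 and 0 at these limits, and in EL4 2 at 1 FPKM and 1 at 5 FPKM. With pseudocounts of 0.1 or 0.01, 2 mouse genes in place of 1 were over 1.5-fold higher in EL4. With more than 3 reads required, 2 genes in place of 6 had reads in a library of the other species. A window of 100 kb held 26 neighbours detected in place of 47 at 250 kb. The median of the human B-lineage list was 0.02, and -0.73 over genes with 1 FPKM in either line. That minimum also moved the medians of mouse B-lineage genes from -0.03 to -5.43, mouse cortical markers from 0.27 to 3.42, and dendritic markers from 0.00 to -3.37 in human and to 1.05 in mouse. Few genes met it: the human dendritic value is that of ITGAX alone, and the mouse value rests on Flt3 and Lyz2. The B-lineage values rest on IGLL1, CD79A, CD79B and EBF1 in human and on Cd22, Cd79b, Blnk and Ms4a1 in mouse. Of the recomputed summary counts 25 stayed within 1.5 times and 11 moved. The single values were sorted by a different limit, and 83 stayed, 52 moved and 1 reversed. By that limit CD1A moved, from 4.34 to 4.85 with a pseudocount of 0.1, and Cd1d1 stayed, from 0.49 to 0.80 with 0.01. The log2 ratio ranged from 4.25 to 4.92 for CD1A, 7.21 to 11.11 for CD1E, 4.69 to 6.64 for CD1C and 1.13 to 4.42 for RAG1 over pseudocounts and scalings. No paired analysis was possible because each line had 1 library. Depth limits the TALL104 levels of CD1E, DNTT and PTCRA, which rest on 2 to 5 reads. The cause of the other shifts was not tested.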
